A study of Mus musculus with 6 samples.

Results

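Carbonic anhydrase genes were examined in single cells from the livers of mice with and without SIRT7, a nuclear NAD-dependent deacylase. The genes described here are Car2, Car3, Car5a, Car8 and Car14, 5 of the 13 columns of the deposited table that carry a carbonic anhydrase (Car) symbol, among 16623 gene columns in all. The 5 were chosen by name, with the WT against SIRT7 KO comparison of these same cells already known, so their levels and their genotype differences are given as descriptions without a test. Measures that did not enter the choice, namely the position of the transcripts along the liver lobule and the other genes of bicarbonate chemistry, were tested.

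Livers came from 3 WT mice and 3 SIRT7 KO mice, all 5 to 6 months of age. Genotype and age are the attributes of the animals given in the labels, which name no diet or drug. From each liver, 3000 hepatocytes and 3000 nonparenchymal cells (NPCs, the other cells of the liver) obtained by collagenase perfusion were mixed and loaded for 10x Genomics 3′ sequencing, in which each captured transcript is counted once by its unique molecular identifier (UMI). The table held 11610 cells, 552 to 5609 per mouse, with 2511947 to 11069411 UMIs per mouse and a median of 1630 to 3875 UMIs per cell. Levels are given as CP10K, the number of UMIs of a gene per 10000 UMIs of the cell, averaged over the cells of one class in one mouse. Because each transcript is counted once from its 3′ end, a level does not scale with the length of the transcript. The mouse was the replicate, and ± is the SD over mice.

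Cells were clustered anew and named from marker genes. Hepatocyte-like cells (2950), macrophage-like cells (3717), T and NK-like cells (2007), dendritic-like cells (1507, a cluster also led by the basophil genes Prss34 and Mcpt8, of which 1309 fell at a finer clustering into a cluster named from monocyte markers), endothelial-like cells (522) and plasma-like cells (439) could be compared between genotypes. Neutrophil-like, B-like and stellate-like cells were too few per mouse. All 8 hepatocyte markers, among them albumin, were detected in every class, so a hepatocyte transcript in an NPC droplet need not come from that cell. Sirt7 itself stood at 0.718, 0.512 and 0.546 CP10K over all cells of the 3 WT mice and at 0.10, 0.0814 and 0.139 CP10K in the 3 SIRT7 KO mice, low but not at 0 in the latter.

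Carbonic anhydrases convert carbon dioxide and water to bicarbonate and a proton, and back. The family is used in the liver for acid-base balance, for bile secretion and to supply bicarbonate to the enzymes that fix it into urea cycle, gluconeogenic and lipid precursors. Car2 is the fast cytosolic form, Car3 is a slow cytosolic form that is abundant in liver, muscle and fat, Car5a works inside mitochondria, Car14 sits in the plasma membrane with its active site outside the cell, and Car8 is a related protein without the catalytic activity.

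The active enzymes hold a zinc ion through histidines, and the stretch around the first 2 of these shows how the members are related and where Car8 differs. The lines below give 30 coding bases of each gene, 5′ to 3′ on the coding strand, from the GRCm38 (mm10) genome with GENCODE M21 models, with the first and second zinc-ligand codons in capitals.

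Car2: ttgatccagtttCACtttCACtggggctca
Car3: cttcgccaattcCATcttCACtggggctcc
Car5a: ctgaagcagtttCATttcCACtggggagca
Car8: ctgtatgaagttAGAtttCACtggggaaga
Car14: gcagcccagctcCACctgCACtggggtcag

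In Car2, Car3, Car5a and Car14 both capitalised codons are histidine codons. In Car8 the first is AGA, an arginine codon, and the second is a histidine codon. Car2 (ENSMUSG00000027562) and Car3 (ENSMUSG00000027559) are neighbours on the plus strand, with the models used at chr3:14886428-14900770 and chr3:14863538-14872523, and their stretches lie in exon 3 at chr3:14895057-14895086 and chr3:14866838-14866867. Car14 (ENSMUSG00000038526) is on the minus strand of the same chromosome at chr3:95897768-95904691, with its stretch in exon 4 at chr3:95900300-95900329. Car5a (ENSMUSG00000025317) is at chr8:121916126-121944904 and Car8 (ENSMUSG00000041261) at chr4:8143362-8239041, both on the minus strand, with stretches in exon 3 at chr8:121927137-121927166 and chr4:8221604-8221633. Coding lengths were 783 bases for Car2 and Car3, 900 for Car5a, 876 for Car8 and 1014 for Car14. The coding sequences were 57.3% to 64.9% identical over the 10 pairs of members, and the longest exact run that the Car3 transcript shared with any other Car transcript was 10 to 21 bases.

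Car3 was by far the most abundant of the 5 in hepatocyte-like cells. Over all mice its level there was 154 times that of Car2, 22.4 times that of Car5a, 26.3 times that of Car8 and 101 times that of Car14. In UMIs over all cells, Car3 had 16107, Car8 852, Car5a 841, Car2 265 and Car14 180. Hepatocyte-like cells held 70.0% of the Car3 UMIs, 68.5% of Car5a, 77.8% of Car14, 51.8% of Car8 and 29.4% of Car2. For scale, they were 2950 of the 11610 cells, with 2791720 UMIs of all genes in WT and 3097943 in SIRT7 KO mice.

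Ordered by the mean over mice, Car3 stood at 21.3 ± 9.70 CP10K in hepatocyte-like cells (n = 6), 7.84 ± 4.99 in endothelial-like cells (n = 5), 4.99 ± 3.78 in T and NK-like cells (n = 6), 3.51 ± 2.72 in dendritic-like cells (n = 6), 3.12 ± 2.79 in macrophage-like cells (n = 6) and 1.58 ± 1.30 in plasma-like cells (n = 4). Hepatocyte-like cells were above endothelial-like cells in 5 of 5 mice, and the same held for each further step down except from dendritic-like to macrophage-like cells, where the order held in 4 of 6 mice. The SDs of the NPC classes were large beside their means, and the mice of each class are given next by genotype.

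In hepatocyte-like cells Car3 was 16.2, 29.4 and 36.9 CP10K in the 3 WT mice and 15.4, 11.6 and 18.5 CP10K in the 3 SIRT7 KO mice. The lowest WT mouse lay within the range of the KO mice, so the genotypes overlapped. The means were 27.5 ± 10.5 and 15.2 ± 3.43 CP10K (n = 3 each), a difference on the log2(CP10K + 0.05) scale of -0.80 with an SE of 0.475. Without WT replicate 1 the difference was -1.14, and without WT replicate 3 it was -0.55.

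The hepatocyte-like cells formed a pair of clusters. In the first (1756 cells, led by Mup17, Sult2a5 and Cyp2c50), Car3 was 20.3, 26.5 and 38.7 CP10K in WT mice and 11.4, 12.8 and 11.4 CP10K in SIRT7 KO mice, so every KO mouse lay below every WT mouse. The means of 28.5 ± 9.38 and 11.9 ± 0.760 CP10K were 2.40-fold apart, with a log2 difference of -1.21 (SE 0.229). Of the 8551 genes measured above the low-value limit in that cluster, 8.98% had all KO mice below all WT mice. In the second cluster (1194 cells, led by Slc22a30, Gm12909 and Mlxipl), the values were 9.94, 40.9 and 34.5 CP10K in WT mice and 20.5, 6.55 and 20.1 CP10K in SIRT7 KO mice. Here the genotypes overlapped, with WT replicate 1 and KO replicate 2 the low libraries. The log2 difference in the second cluster was -0.79 (SE 0.565), and it was -0.25 without KO replicate 2 and -1.43 without WT replicate 1. Whether the clusters differed from each other was not tested.

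**Figure D1:**
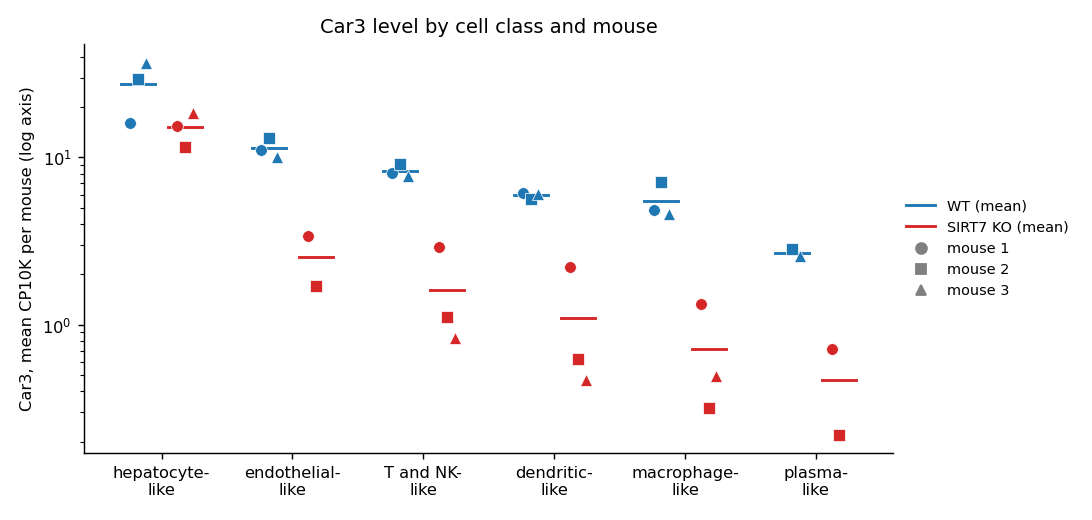
Car3 level (CP10K, log axis) by cell class, with 1 point per mouse, WT and SIRT7 KO in separate colours and bars at the mean of each genotype. Points of the genotypes mix in hepatocyte-like cells, while in the 5 NPC classes every SIRT7 KO point lies below every WT point; KO replicate 3 is not drawn for endothelial-like and plasma-like cells and WT replicate 1 is not drawn for plasma-like cells.

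In the NPC classes Car3 was lower in every SIRT7 KO mouse than in any WT mouse. In macrophage-like cells it was 4.85, 7.10 and 4.62 CP10K in WT mice and 1.33, 0.319 and 0.492 CP10K in SIRT7 KO mice, a 7.73-fold lower mean in KO. In T and NK-like cells the values were 8.11, 9.18 and 7.77 CP10K in WT mice against 2.93, 1.11 and 0.837 CP10K in SIRT7 KO mice, 5.14-fold. The lowest WT mouse was thus well above the highest KO mouse in both classes.

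Dendritic-like cells gave 6.13, 5.61 and 6.04 CP10K in WT mice and 2.21, 0.621 and 0.470 CP10K in SIRT7 KO mice, 5.38-fold. Endothelial-like cells gave 11.03, 12.97 and 10.1 CP10K in WT mice and 3.37 and 1.69 CP10K in 2 SIRT7 KO mice, 4.49-fold. KO replicate 3 had 8 endothelial-like cells, fewer than the 20 required, and was left out of that class. In plasma-like cells, with 2 mice per genotype, Car3 was 2.82 and 2.56 CP10K in WT and 0.719 and 0.220 CP10K in SIRT7 KO, 5.73-fold.

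On the log2 scale the differences were -3.07 (SE 0.414) in macrophage-like, -2.53 (SE 0.379) in T and NK-like, -2.69 (SE 0.502) in dendritic-like, -2.22 (SE 0.332) in endothelial-like and -2.59 (SE 0.459) in plasma-like cells. In SIRT7 KO mice, replicate 1 was the highest in all 5 of these classes. Without it the difference grew to -3.34 in both dendritic-like and plasma-like cells, and without KO replicate 2 it was -1.83 in plasma-like cells. The share of all measured genes with every KO mouse below every WT mouse was 9.74% in macrophage-like, 6.34% in T and NK-like, 6.97% in dendritic-like, 12.9% in endothelial-like and 11.2% in plasma-like cells, where fewer mice were compared in the last 2.

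Car3 was also counted per cell. Over the 5 NPC classes compared, the mean number of Car3 UMIs per cell lay between 1.88 and 2.67 in WT replicate 1, between 1.78 and 2.28 in WT replicate 2 and between 0.953 and 1.23 in WT replicate 3. In SIRT7 KO mice it lay between 0.227 and 0.409, between 0.0963 and 0.246 and between 0.280 and 0.387. All WT values in these classes were above all KO values. Among classes too small to compare, B-like cells of KO replicate 1 (58 cells) had 0.793 and neutrophil-like cells of WT replicate 1 (23 cells) had 1.17 Car3 UMIs per cell, both outside the range of their own mouse.

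Hepatocyte-like cells stood above the 5 NPC classes of their own mouse, at 2.80, 6.5 and 5.31 Car3 UMIs per cell in WT and 2.31, 1.75 and 7.62 in SIRT7 KO. In WT replicate 1 the step from the NPC classes to the hepatocyte-like cells was small.

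**Figure D2:**
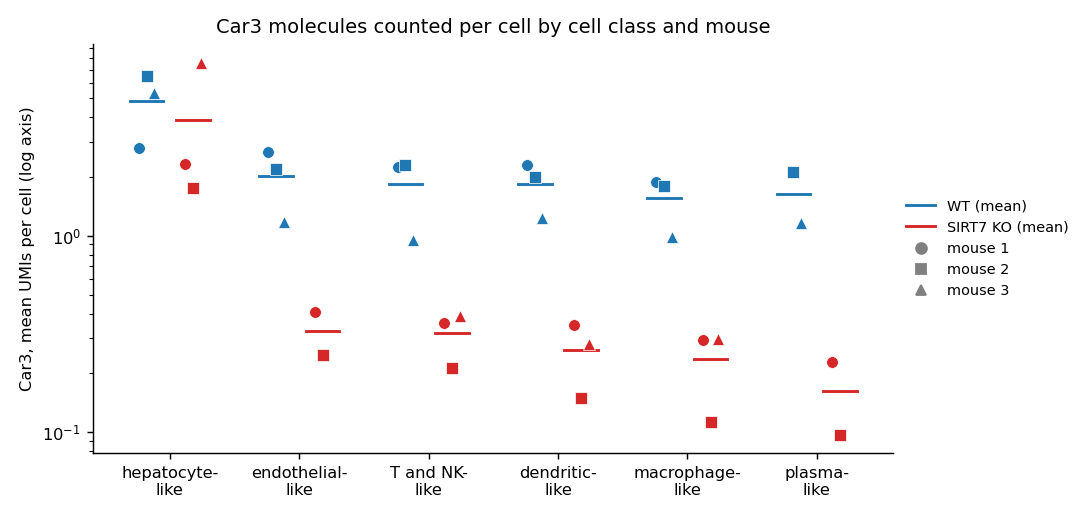
Mean Car3 UMIs per cell (log axis) by cell class, with 1 point per mouse, shaped by mouse, and bars at the genotype means. The 5 NPC classes range from 0.953 to 2.67 in WT and from 0.0963 to 0.409 in SIRT7 KO mice, and the hepatocyte-like cells of each mouse lie above them.

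The share of cells with at least 1 Car3 UMI showed the same pattern. It was 91.1%, 94.5% and 95% of hepatocyte-like cells in WT and 73.5%, 73.1% and 88.7% in SIRT7 KO mice. Over the NPC classes it was 63.4% to 92.2% in WT and 6.94% to 27.5% in SIRT7 KO mice, at medians of 1209 to 3291 UMIs per cell in hepatocyte-like and 2100 to 6493.5 in macrophage-like cells.

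To set depth aside, cells of at least 1000 UMIs were thinned to 1000 UMIs each, which left 2328 of the 2950 hepatocyte-like cells. The shares of hepatocyte-like cells with Car3 were then 75.0%, 90.0% and 92.4% in WT and 66.4%, 66.1% and 66.9% in SIRT7 KO mice. In macrophage-like cells they were 35.1%, 39.9% and 35.2% in WT and 10.9%, 2.52% and 4.99% in SIRT7 KO mice. At equal depth the KO mice lay below the WT mice in both classes, and the 3 WT libraries lay close together in macrophage-like cells. The share of all genes that separate in this way after thinning was not computed. The mean levels of Car3 in hepatocyte-like cells overlapped between genotypes, as given above.

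Car3 was also set against hepatocyte RNA in the same cells. Per 1000 UMIs of the 8 hepatocyte markers, hepatocyte-like cells had 36.2 to 136 Car3 UMIs in WT mice and 70.4 to 81.5 in SIRT7 KO mice. The means were 75.7 ± 53.0 and 77.6 ± 6.20, so relative to these markers the mean of Car3 was not lower in KO hepatocyte-like cells. The WT mean rested on WT replicate 3, at 136 in 100 cells. WT replicates 1 and 2, at 36.2 and 55.0, were below every KO mouse. Macrophage-like cells had 63.2 to 125 in WT and 8.84 to 37.0 in SIRT7 KO mice. Relative to the hepatocyte-like cells of the same mouse, the macrophage-like ratio was 0.918 to 2.13 in WT but 0.109 to 0.513 in SIRT7 KO mice. The ratio in macrophage-like cells of WT mice was therefore close to or above that of their hepatocyte-like cells, and in every KO mouse it was below it. Hepatocyte-like cells of one mouse did not share a single ratio. For example, WT replicate 1 had 48.8 in the first hepatocyte cluster and 24.9 in the second, and WT replicate 2 had 40.6 and 144. The source of the Car3 UMIs in NPC droplets was not tested.

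In dendritic-like and plasma-like cells the ratio was also lower in every KO mouse, and in the other 2 NPC classes the genotypes met or nearly met. In dendritic-like cells the range was 67.6 to 120 in WT and 10.0 to 49.6 in SIRT7 KO mice, and in plasma-like cells 90.1 to 120 against 30.9 to 38.6. In endothelial-like cells it was 96.3 to 155 against 46.9 to 95.9, where the upper KO value rests on 14 Car3 UMIs (exact Poisson 95% interval 52.4 to 161), and relative to the hepatocyte-like cells of the same mouse the ratio was 1.14 to 2.66 in WT and 0.666 to 1.18 in SIRT7 KO mice, which overlapped. In T and NK-like cells the ranges of 67.3 to 114 and 17.2 to 74.7 overlapped.

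Unlike Car3, the summed hepatocyte markers did not separate the genotypes in the 5 NPC classes. They ranged from 32.9 to 88.7 CP10K in WT and from 9.15 to 51.4 CP10K in SIRT7 KO macrophage-like cells, from 67.0 to 117 and from 14.0 to 77.3 in T and NK-like cells, and from 44.7 to 80.9 and from 13.01 to 55.6 in dendritic-like cells. In endothelial-like cells the ranges were 62.2 to 114 and 18.9 to 78.1, in plasma-like cells 20.4 to 31.2 and 6.10 to 24.3, and in hepatocyte-like cells 225 to 470 and 135 to 253 CP10K. The hepatocyte-like means of the marker sum were 368 ± 128 CP10K in WT and 202 ± 60.7 CP10K in SIRT7 KO mice, where Car3 overlapped as well. The genotypes overlapped in all 6 classes, but 7 or 8 of the 8 markers had a lower KO mean in each, and the part of this in the Car3 values was not tested. Macrophage markers in hepatocyte-like cells summed to 0.606 to 2.35 CP10K in WT and 1.02 to 5.13 CP10K in SIRT7 KO mice, and the red blood cell list, with Slc4a1 at 0, to 0.045 to 62.8 and 0.137 to 3.64 CP10K.

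**Figure D3:**
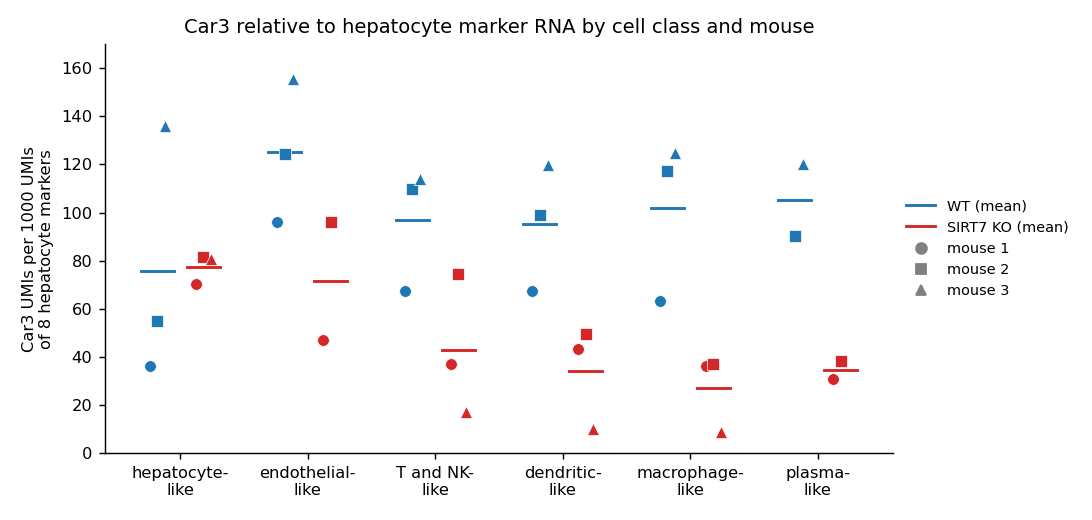
Car3 UMIs per 1000 UMIs of the 8 hepatocyte markers by cell class, with 1 point per mouse and bars at the genotype means. WT and SIRT7 KO points overlap in hepatocyte-like and in T and NK-like cells and do not overlap in the other 4 classes, narrowly in endothelial-like cells (96.3 against 95.9), for example 63.2 to 125 in WT and 8.84 to 37.0 in SIRT7 KO macrophage-like cells.

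Against its paralogs, Car3 took a smaller share of the UMIs of the 5 genes in the NPC classes of SIRT7 KO mice. Car3 made up most of these UMIs in every WT mouse, so the share largely restates the Car3 level and is no separate result. In hepatocyte-like cells the share was 87.0% to 95.5% in WT and 82.6% to 91.3% in SIRT7 KO mice, which overlapped. In the other 5 classes every KO mouse was below every WT mouse, with 92.1% to 95.3% against 74.7% to 82.2% in macrophage-like cells, 87.9% to 90.8% against 40.0% to 77.9% in T and NK-like cells and 90.0% to 94.8% against 81.2% to 87.5% in dendritic-like cells. Endothelial-like cells gave 76.6% to 85.2% against 48.3% to 61.2%, and plasma-like cells 91.3% to 92.6% against 68.4% to 72.5%. Some KO values rest on few UMIs of the 5 genes. KO replicate 3 had 30 in T and NK-like cells, where the share was 40.0%, and 16 in dendritic-like cells. KO replicate 2 had 29 in endothelial-like and 19 in plasma-like cells. The paralogs' own values follow.

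**Figure D4:**
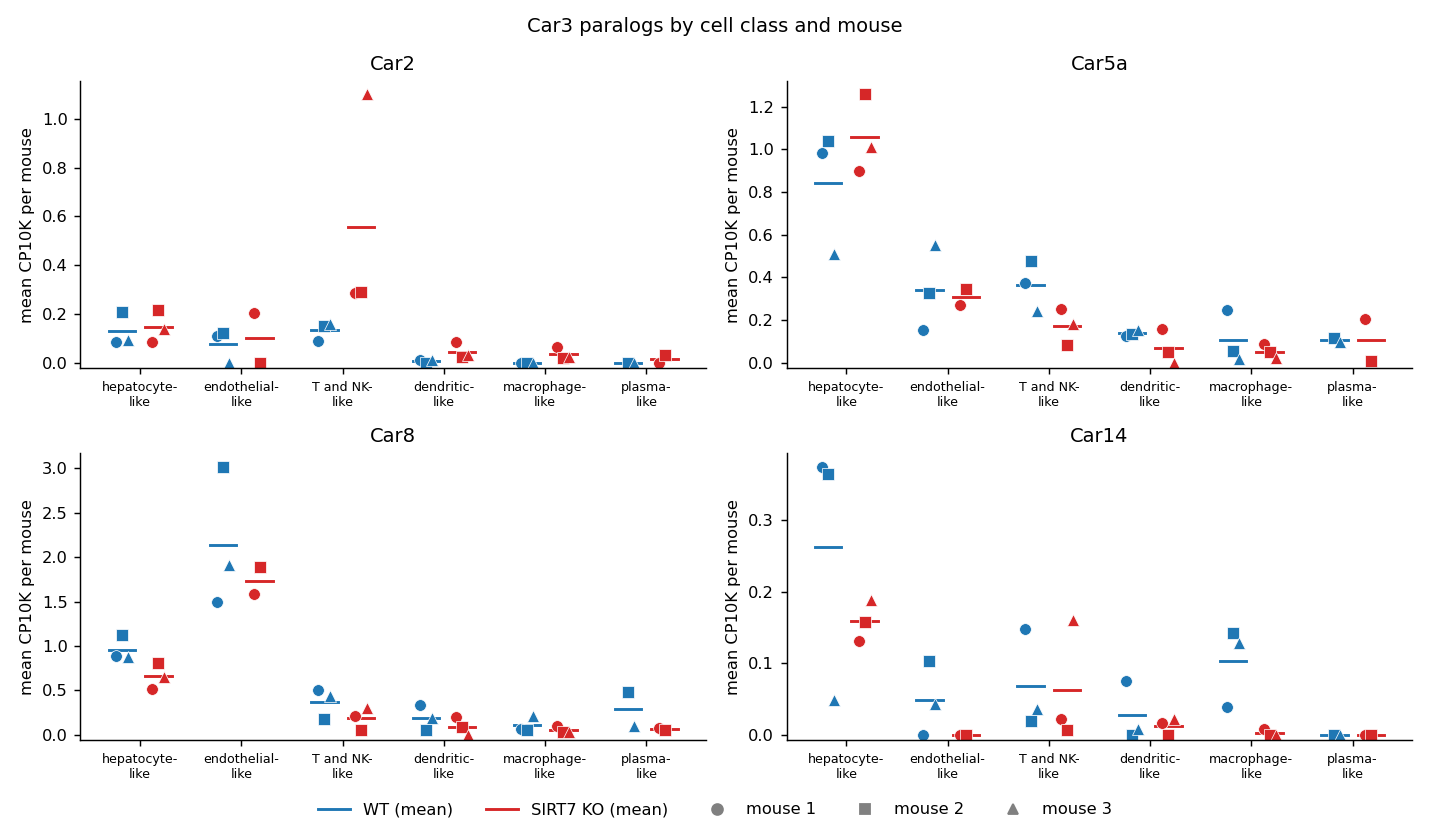
Levels of Car2, Car5a, Car8 and Car14 (CP10K) by cell class, with 1 point per mouse and bars at the genotype means. By the mean over all mice, Car5a and Car14 were highest in hepatocyte-like cells, Car8 in endothelial-like cells and Car2 in T and NK-like cells. In WT mice alone the Car2 means of T and NK-like and hepatocyte-like cells were close (0.133 and 0.129).

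Car5a, the mitochondrial form, was found mainly in hepatocyte-like cells and did not separate by genotype. It was 0.982, 1.04 and 0.512 CP10K in WT and 0.900, 1.26 and 1.01 CP10K in SIRT7 KO hepatocyte-like cells, with means of 0.844 ± 0.289 and 1.06 ± 0.183 (n = 3 each). WT replicate 3 was the low library and the other 5 mice mixed. The log2 difference was 0.35 (SE 0.388), and 0.05 without WT replicate 3. The genotypes overlapped in all 6 classes. Car5a was 0.951 CP10K over all mice in hepatocyte-like cells, 0.329 in endothelial-like, 0.269 in T and NK-like, 0.107 in plasma-like, 0.104 in dendritic-like and 0.0796 in macrophage-like cells. Hepatocyte-like cells were above endothelial-like cells in 4 of 5 mice, and among the lower classes plasma-like cells were above dendritic-like cells in 1 mouse.

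Car8, the noncatalytic relative, was highest in endothelial-like cells. There it was 1.49, 3.02 and 1.91 CP10K in WT and 1.58 and 1.88 CP10K in SIRT7 KO mice, above the hepatocyte-like cells of the same mouse in 5 of 5 mice. The endothelial-like genotype means of 2.14 ± 0.789 (n = 3) and 1.73 ± 0.215 (n = 2) overlapped. Per 1000 hepatocyte-marker UMIs, Car8 was 14.0 to 89.0 in endothelial-like cells and 2.02 to 5.11 in hepatocyte-like cells, ranges that did not meet.

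In hepatocyte-like cells Car8 was 0.884, 1.12 and 0.873 CP10K in WT mice and 0.512, 0.805 and 0.655 CP10K in SIRT7 KO mice. Every KO mouse was below every WT mouse, by a small margin, as were 3.24% of the 9850 genes measured in these cells. The means were 0.960 ± 0.142 and 0.657 ± 0.147 CP10K (n = 3 each), with a log2 difference of -0.53 (SE 0.364). Within each of the hepatocyte clusters the genotypes overlapped. Car8 was 0.279 CP10K in T and NK-like, 0.143 in dendritic-like and 0.0828 in macrophage-like cells. In plasma-like cells it was 0.480 and 0.104 CP10K in WT and 0.0739 and 0.0589 CP10K in SIRT7 KO mice, on 7 and 6 UMIs, with 1 UMI behind the value of 0.480.

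Car14, the membrane form, was rare, at 0.211 CP10K over all mice in hepatocyte-like, 0.0653 in T and NK-like, 0.0528 in macrophage-like, 0.029 in endothelial-like and 0.0202 in dendritic-like cells. In hepatocyte-like cells it was 0.375, 0.364 and 0.0484 CP10K in WT mice and 0.132, 0.157 and 0.189 CP10K in SIRT7 KO mice. The 3 KO mice fell between WT replicate 3 and the other 2 WT mice. The means of 0.262 ± 0.185 and 0.159 ± 0.0288 CP10K rested on 94 and 46 UMIs, and the log2 difference of -0.32 (SE 0.535) became 0.04 without WT replicate 1 and -1.01 without WT replicate 3. In macrophage-like cells it was 0.0386, 0.142 and 0.128 CP10K in WT and 0.0078, 0 and 0 CP10K in SIRT7 KO mice, on 8 and 6 UMIs. The plasma-like cells of the compared mice had none.

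Car2, the fast cytosolic form, was the one member with its highest mean over all mice in T and NK-like cells, above hepatocyte-like cells in 5 of 6 mice. In WT mice alone the means of these classes were close, at 0.133 ± 0.0373 and 0.129 ± 0.0696 CP10K. In T and NK-like cells Car2 was higher in SIRT7 KO mice. Car2 was 0.0902, 0.152 and 0.157 CP10K in WT T and NK-like cells and 0.287, 0.288 and 1.10 CP10K in SIRT7 KO T and NK-like cells. Every KO mouse was above every WT mouse, as were 5.16% of the genes measured in that class. The means were 0.133 ± 0.0373 and 0.558 ± 0.469 CP10K (n = 3 each), with a log2 difference of 1.49 (SE 0.486). KO replicate 3, with 31 T and NK-like cells, was far above the rest, and without it the log2 difference was 0.90.

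The makeup of that class moved with the same comparison. A finer clustering split off cells led by Gzma, Ncr1 and Gzmc, genes of cytotoxic and innate lymphocytes, which made up 5.85%, 11.5% and 8.27% of the T and NK-like cells in WT and 29.9%, 16.2% and 41.9% in SIRT7 KO mice. Pooled over mice, Car2 in the split-off cells was 1.17 CP10K in WT (13 UMIs in 51 cells, exact Poisson 95% interval 0.623 to 2.0) and 0.968 CP10K in SIRT7 KO (47 UMIs in 331 cells, 0.712 to 1.29). In the remaining cells it was 0.0587 CP10K in WT (8 UMIs in 564 cells, 0.0253 to 0.116) and 0.140 CP10K in SIRT7 KO (31 UMIs in 1061 cells, 0.0949 to 0.198). Car2 was therefore concentrated in the Gzma-led cells of both genotypes. The intervals, which cover only the counting error of UMIs pooled over mice, overlapped widely between genotypes in the Gzma-led cells. In the remaining cells they overlapped narrowly, with the higher level in SIRT7 KO. Such overlap does not show that the genotypes are equal within a set of cells. Of the 31 UMIs in the remaining KO cells, 18 came from cells led by the cell cycle genes Hist1h2ae and Top2a, which numbered 265 in SIRT7 KO and 24 in WT mice, with 0 Car2 UMIs in the latter. The part of either cluster's share in the class-wide difference was not tested.

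In macrophage-like cells no Car2 UMI was found among 1064008 UMIs of WT mice, which allows up to 0.0282 CP10K at 3 UMIs over the genotype. SIRT7 KO macrophage-like cells had 55 Car2 UMIs of 9213238, or 0.0658, 0.0198 and 0.0224 CP10K in the 3 mice and 0.0597 CP10K pooled. The pooled level was above the WT limit, but 45 of these UMIs came from KO replicate 1. The limit is a pooled level while the values per mouse are means over cells, so KO replicates 2 and 3 were not placed against it singly. Without KO replicate 1 the pooled KO level was 0.0345 CP10K on 10 UMIs, a little above the limit. In the single WT mice 3 UMIs stood for 0.113, 0.175 and 0.0479 CP10K. In dendritic-like cells Car2 was 0.0106, 0 and 0.0131 CP10K in WT and 0.0835, 0.022 and 0.0301 CP10K in SIRT7 KO mice, on 3 and 13 UMIs. Taken mouse by mouse, the WT libraries were too shallow in these classes to place their levels above or below those of KO replicates 2 and 3.

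Hepatocyte-like cells had Car2 at 0.0852, 0.210 and 0.0933 CP10K in WT mice and 0.087, 0.216 and 0.140 CP10K in SIRT7 KO mice. The values overlapped throughout. Car2 over all mice was 0.346 ± 0.378 CP10K in T and NK-like, 0.139 in hepatocyte-like, 0.087 in endothelial-like, 0.0266 in dendritic-like, 0.018 in macrophage-like and 0.0075 in plasma-like cells.

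The number of members above 0.05 CP10K, the limit for entering the fit across genes, was 5 in hepatocyte-like and in T and NK-like cells, 4 in macrophage-like cells (without Car2), 4 in endothelial-like cells (without Car14) and 3 each in dendritic-like and plasma-like cells (without Car2 and Car14).

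The other carbonic anhydrase genes were scarce. Of 11 listed, 8 were in the table, with 3 to 82 UMIs each over all cells. Car9, a membrane form induced by low oxygen, had 68 of its 82 UMIs (82.9%) in macrophage-like cells, and Car13, a cytosolic form, had 45 of its 50 (90.0%). Macrophage-like cells were 3717 of the 11610 cells. Hepatocyte-like cells held no UMI of Car6, Car9 or Car12. A single one of the 8, Car1, the slower cytosolic form of red blood cells, reached the limit for testing in hepatocyte-like cells, on 26 UMIs. There it was 0.115, 0.0416 and 0.110 CP10K in WT and 0.0574, 0 and 0 CP10K in SIRT7 KO mice. With means of 0.0886 CP10K in WT and 0.0191 CP10K in SIRT7 KO mice, Car1 reached that limit of 0.05 CP10K through the WT mice. It did not pass the test across all genes by limma (log2 difference -1.06, SE 0.526, adjusted p = 0.705), and none of the list had an unadjusted p under 0.05. By the same test, 12 of 9850 genes passed in hepatocyte-like cells (0.122%), 2 higher and 10 lower in SIRT7 KO, and the number was 3 without WT replicate 3, 7 without WT replicate 1, 8 without KO replicate 3 and 25 without KO replicate 2.

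Bicarbonate carries charge and crosses membranes through exchangers and cotransporters. Of 14 listed transport genes 10 were in the table and 6 were tested in hepatocyte-like cells, and 0 passed by limma, with 0 at an unadjusted p under 0.05. Their median log2 difference was 0.14, beside 0.16 over all genes tested. Slc4a4, a sodium bicarbonate cotransporter, was 0.858, 1.33 and 0.761 CP10K in WT and 1.23, 0.641 and 1.65 CP10K in SIRT7 KO mice (limma log2 difference 0.19, SE 0.419, adjusted p = 0.968). Slc26a1, a sulfate and bicarbonate exchanger, was 0.615, 0.740 and 0.121 CP10K in WT and 0.337, 0.148 and 0.715 CP10K in SIRT7 KO mice (limma log2 difference -0.20, SE 0.584, adjusted p = 0.975). The values of both genes overlapped between genotypes.

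Of the 9 enzymes listed that use bicarbonate as a substrate, 8 were in the table and tested, and 0 passed by limma, with a lowest adjusted p of 0.568 and a median log2 difference of -0.04. Cps1, which makes carbamoyl phosphate for the urea cycle from bicarbonate that Car5a can supply, was 20.6, 18.6 and 12.5 CP10K in WT and 8.98, 2.96 and 17.4 CP10K in SIRT7 KO mice (limma log2 difference -1.12, SE 0.573, adjusted p = 0.709). KO replicate 3 was within the WT range, and without KO replicate 2 the log2 difference was -0.43. Acaca, the cytosolic acetyl-CoA carboxylase of fatty acid synthesis, was 1.51, 0.766 and 0.753 CP10K in WT and 1.79, 1.503 and 6.67 CP10K in SIRT7 KO mice (limma log2 difference 1.41, SE 0.521, adjusted p = 0.600), with a log2 difference of 0.75 without KO replicate 3.

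Acaca was 1 of 3 of the 8 enzymes with an unadjusted p under 0.05, as had 7.54% of all genes tested, and the other 2 are named for that after their values were seen. Pccb, a subunit of propionyl-CoA carboxylase, was 1.05, 1.20 and 1.31 CP10K in WT and 0.475, 0.788 and 0.406 CP10K in SIRT7 KO mice, every KO mouse below every WT mouse, as in 3.24% of all genes (limma log2 difference -1.07, SE 0.376, adjusted p = 0.568). Acacb, the acetyl-CoA carboxylase at mitochondria that restrains fatty acid oxidation, was 0.516, 0.334 and 0.059 CP10K in WT and 0.413, 0.848 and 1.94 CP10K in SIRT7 KO mice (limma log2 difference 1.71, SE 0.597, adjusted p = 0.568). These 3 genes did not pass the correction over all genes.

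Hepatocytes change their enzymes along the lobule, from the portal vein, where urea is made, to the central vein. Each mouse's hepatocyte-like cells were split at the median of a score of 8 pericentral and 8 periportal genes, and the pericentral and periportal cells were compared with the mouse as a block. Over 9834 genes, 0 passed by limma (0%), with 925 at an unadjusted p under 0.05. Without WT replicate 3 the number was 429, with no member among them.

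Car3 did not pass along this axis, and a fit that called 0 of 9834 genes cannot show that its level is even. It was 22.2 ± 8.91 CP10K in the pericentral and 20.4 ± 10.7 CP10K in the periportal cells (n = 6), a limma log2 difference of 0.20 (SE 0.154, 95% interval -0.14 to 0.53, adjusted p = 0.701). It was higher in the pericentral cells of 3 of 6 mice. The per-mouse log2 values were 0.229, -0.0782 and -0.0024 in WT and -0.0871, 0.622 and 0.507 in SIRT7 KO mice, a difference between genotypes of 0.30 with an exact permutation p of 0.4 (two-sided, 0.875 adjusted over the members, smallest p possible 0.1). With 3 mice per genotype the permutation test could not reach 0.05, so it cannot show that the genotypes are alike in this value.

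In 5 equal bins of the score, from periportal to pericentral, the WT means of Car3 were 26.7, 28.0, 28.4, 28.4 and 25.8 CP10K and the SIRT7 KO means were 12.3, 13.5, 15.5, 17.0 and 17.4 CP10K. The KO mean was the lower one in all 5 bins.

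**Figure D5:**
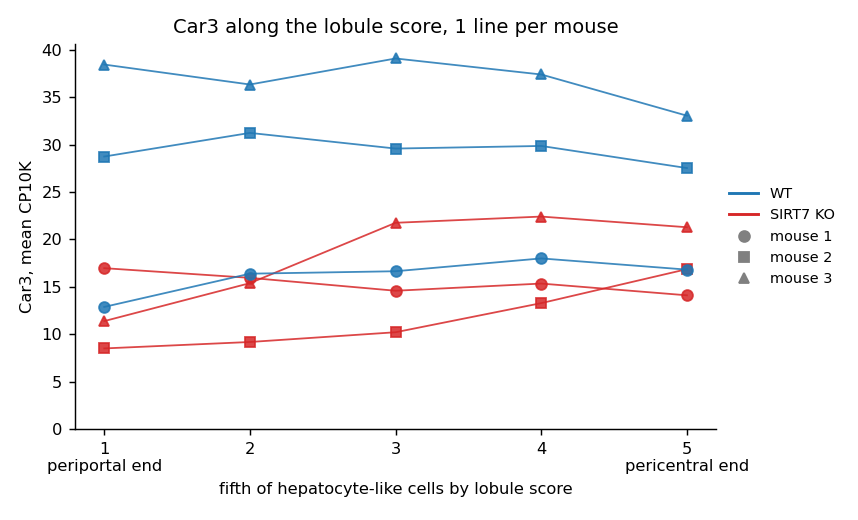
Car3 level (CP10K) in 5 equal bins of hepatocyte-like cells ordered by the zonation score, from periportal to pericentral, with 1 line per mouse coloured by genotype. The WT means lie between 25.8 and 28.4 and the SIRT7 KO means between 12.3 and 17.4, and WT mouse 1 runs among the SIRT7 KO mice.

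None of the paralogs passed the test along the lobule, which has the same limits for them as for Car3. By limma, Car2 had a log2 difference of 0.67 (SE 0.370, adjusted p = 0.588) and was higher in the pericentral cells of 5 of 6 mice, and the difference was 0.35 without WT replicate 3. Car5a had -0.14 (SE 0.214, adjusted p = 0.862), Car8 -0.23 (SE 0.204, adjusted p = 0.739) and Car14 -0.40 (SE 0.348, adjusted p = 0.730). The exact permutation p of the genotype difference in this value was 0.6 to 1.0 for these 4 genes.

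The genes most like Car3 were looked for by correlation of log2 levels in hepatocyte-like cells. Over the 6 mice and 3252 genes, the highest Pearson coefficients were those of Acadsb, an enzyme of branched-chain acyl-CoA oxidation (r = 0.988), 1600014C10Rik (0.973), Cyp51, an enzyme of cholesterol synthesis (0.970), Ido2 (0.961) and Wwp1 (0.956). Over 30 bins, the 5 of the lobule in each of 6 mice, 4 of the 5 highest were those of Cyp2c37 (0.793), 1600014C10Rik (0.782), Cd164 (0.769) and Msmo1, an enzyme of cholesterol synthesis (0.769). Of the genes named, 1600014C10Rik was on both lists. Each list holds the highest coefficients of all genes compared, and the points of a mouse share its library and depth.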

How the data were processed

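Per the labels, livers of 3 WT and 3 SIRT7 KO mice were profiled by 10x Genomics 3′ sequencing with Cell Ranger 6.0.0 and mm10. The authors removed cells of few genes or high mitochondrial content, scaled each cell to 10000 and took the natural log with an offset of 1; the deposited values are on that natural log scale. All 12961041 values above 0 gave whole UMIs within 0.02, and these were used to describe depth and counting error. In all, 13 barcodes occurred in more than 1 mouse.

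Cells were clustered with scanpy 1.11.5 and leidenalg 0.10.2 (1000 variable genes, 50 components, 3 neighbours per mouse, resolution 0.35), and classes needed 20 cells in a mouse. Scrublet marked 46 of 11610 cells (0.4%), too few to be informative, so no cell was removed as a doublet. Hepatocyte-like clusters were named after setting aside cells over 10% hemoglobin UMIs, 9 of 18 such cells in all. Mouse means were compared by limma 3.58.1 (trend and robust) in R 4.3.3 on log2(mean CP10K + 0.05), keeping genes whose mean reached 0.05 CP10K, with two-sided p-values adjusted by Benjamini-Hochberg over every gene kept and a threshold of 0.05. The fits were tested on simulated data. Named genes were the 5 members, genes of 3 fixed lists that passed or else the 2 with the highest mean, and the 5 genes most like Car3. The members and lists were chosen with earlier results of these data known. One of the genes most like Car3 over the lobule bins is not reported here.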

Additional observations from a re-analysis of the deposited data

How the results depend on the processing

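Of 361 recomputed values, 346 stayed on their side of the threshold or, with no test, moved by less than the SD between mice, and 11 of all changed sign. With the mean of the deposited natural log values in place of mean CP10K, the Car3 log2 difference between genotypes was -1.64 in macrophage-like, -1.76 in dendritic-like, -1.18 in plasma-like and -1.19 in hepatocyte-like cells. With a pseudocount of 0.5 it was -1.77 in plasma-like cells. When each mouse was left out in turn, its range in endothelial-like cells was -2.70 to -1.73. The Car2 difference in T and NK-like cells was 0.20 by natural log means and 0.66 with a pseudocount of 0.5, and that of Car8 in hepatocyte-like cells was -0.12 by natural log means. Leaving out a mouse reversed Slc4a4 (range -0.10 to 0.55), Slc26a1 (-0.90 to 0.28, with WT replicate 1 out 0.08 and WT replicate 2 out 0.21) and the lobule value of Car5a (-0.19 to 0.052). It also turned the sign, within the SD between mice, of Car2 in hepatocyte-like cells (-0.02 without WT replicate 1 and -0.09 without SIRT7 KO replicate 2), Car8 in endothelial-like cells (0.03 without WT replicate 2) and Car14 in hepatocyte-like cells (0.04 and 0.02 without WT replicates 1 and 2). The lobule value of Car8 was 0.084 in thinned cells. The cause was not tested.

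The 12 genes that passed in hepatocyte-like cells became 3 with no filter on low values, 3 with a pseudocount of 0.5, 3 with summed UMIs and 0 by natural log means, and no gene of the lists passed in any of these fits. With the replicate number as a block, the Car3 difference in hepatocyte-like cells was -0.80 and 16 genes passed, 3 higher and 13 lower. No gene of the lists changed its call under the block, which could not be fitted in plasma-like cells. Deviations of same-numbered mice correlated at -0.129 to 0.230 over 12 pairs in 4 classes, over 0.1 in all 3 pairs of hepatocyte-like cells but in 7 of the 12, and 8 were highest with their own number. Along the lobule, 429 genes passed without WT replicate 3, of which 43 were pericentral and 386 periportal. Leaving out cells over 10% hemoglobin UMIs was chosen after seeing the data and left the number of genes passed at 12. Removing doublets was not run. Depth limits Car2 and Car14, with 265 and 180 UMIs over all cells.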
